A study of Mus musculus with 9 samples.

Results

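The 33 genes followed here carry glucose through glycolysis to lactate or report the cell's response to low oxygen, and they were read from a table of 56748 genes by their symbols. They comprise 22 genes of the glycolytic route, from the glucose transporter to the enzymes and carriers that decide the fate of pyruvate and lactate, and 11 hypoxia genes, namely the sensors and alpha subunits of the hypoxia-inducible factor (HIF) and genes that HIF is known to induce. Of the 33, 32 were listed under the given symbol and Ca9 under its mouse symbol Car9. A second row named Aldoa (ENSMUSG00000114515) held between 1.34 and 25.5 normalized counts per library and was set aside. RNA was sequenced from wild-type primary mouse airway basal stem cells, the progenitors of the tracheal lining. They were grown at an air-liquid interface, where cells on a membrane are fed from below and meet air from above. The 3 groups were day 1, day 3 and day 5 of that culture, with 3 libraries each, and all shared genotype and treatment. The submitters describe these days as the times of proliferation, stratification and the choice of luminal fate, so the comparisons ask how energy metabolism genes change as basal cells differentiate.

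Glycolysis splits glucose into pyruvate and yields ATP without oxygen, and lactate dehydrogenase then turns pyruvate into lactate, which monocarboxylate carriers export. Proliferating cells are known to run this route at a high rate, whereas ciliated and other differentiated airway cells use oxidative metabolism. When oxygen is low, prolyl hydroxylases no longer mark the HIF alpha subunits for destruction, and HIF then raises glucose transport, most glycolytic enzymes and genes for vessel growth and pH control. HIF is controlled mainly through the stability of its protein, which RNA levels do not report.

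The libraries held 16.4 to 35.1 M reads, and a day's mean depth fell from 30.8 ± 4.29 M at day 1 through 21.9 ± 2.55 M at day 3 to 17.6 ± 1.51 M at day 5 (SD, n = 3). Levels here are normalized counts, meaning reads divided by 1 size factor per library, and ± gives the SD of a day's 3 libraries, while SE is named as such. The 5 basal cell markers were present in every library, with a summed level of 147659 to 168727 on day 1, 96062 to 100751 on day 3 and 50737 to 67749 on day 5. Most of this sum was Krt5 and Krt14, and the markers differed in course. Mean levels on days 1, 3 and 5 were 108199, 82486 and 38922.5 for Krt5 and 38820, 9822 and 11899 for Krt14. They were 3811, 1644 and 2798 for Trp63, 359, 1581 and 1990 for Ngfr, and 3639, 3204 and 4603 for Pdpn. Summed levels of markers of other tracheal cell types were low. The 8 fibroblast markers reached 6.10 to 14.9 on day 1, 4.02 to 8.88 on day 3 and 105 to 139 on day 5, with Lum and Thy1 at 0 on day 5. The 6 endothelial markers stayed between 8.61 and 23.7, and the 6 smooth muscle and cartilage markers between 28.1 and 56.2. The 8 leukocyte markers summed to 258 to 291, 1576 to 1735 and 167 to 204 on days 1, 3 and 5, almost all of it Cd68, while Tyrobp was at 0 on every day. The sex-linked RNAs differed between days. Xist had 1825 ± 246, 5998 ± 507 and 7373 ± 1292 normalized counts and 4 Y-linked genes together 3137 ± 113, 324 ± 24.2 and 461 ± 98.3. The sex of the animals is not given in the labels used here, and it cannot be told apart from the day in any result that follows. Nothing in the labels states that the libraries of a day are separate cultures or animals. The p-values thus rest on the spread among these libraries alone, and that spread may be technical.

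Most glycolytic genes fell at both steps, while the hypoxia genes did not move as 1 group. Of the 22 glycolytic genes, 14 fell and 5 rose from day 1 to day 3, 18 fell and 1 rose from day 3 to day 5, and 18 fell and 3 rose over the whole interval (limma, Benjamini-Hochberg adjusted p below 0.05 over 17338 genes). In all, 28, 27 and 28 of the 33 genes passed in the 3 comparisons, beside 73%, 67.3% and 74.5% of all tested genes, and all 33 passed the F test for any difference between the days, beside 91.4%. In the same fit, 37% of all tested genes fell and 36.1% rose from day 1 to day 3. The shares were 32.4% falling and 34.8% rising for the later step, and 37.7% falling and 36.7% rising for day 5 against day 1. The median log2 change of the glycolytic genes was -0.79, -0.94 and -1.63 in the 3 comparisons, beside 0.00, 0.06 and -0.06 for all tested genes. Of the 11 hypoxia genes, 6 fell and 3 rose at the first step, 5 fell and 3 rose at the second, and 6 fell and 1 rose from day 1 to day 5, with medians of -0.51, -0.29 and -0.49. The comparisons share libraries, since each day serves 2 of the 3. All 33 genes passed the filter on low values. Total RNA of a culture was measured, so fewer cells of a type and less RNA per cell cannot be told apart.

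**Figure D1:**
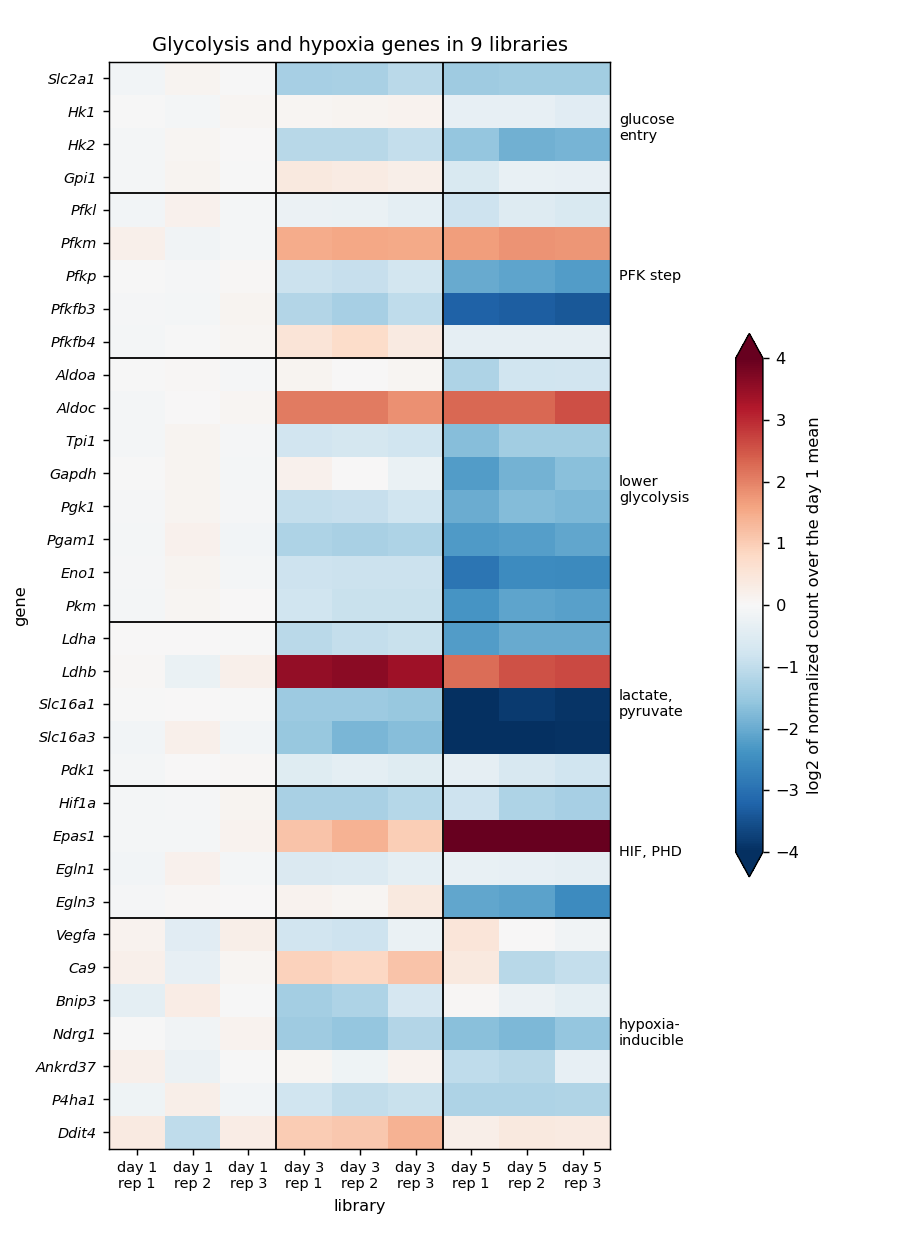
Heat map of the 33 genes (rows, grouped by role) in the 9 libraries (columns), coloured by the log2 ratio of each library's normalized count to the gene's day 1 mean; colours saturate at 4 in either direction. Rows of lower glycolysis are blue on day 5 apart from Aldoc, those of Aldoa and Gapdh only after day 3, and Epas1 and Ldhb stand out in red.

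The weight of glycolysis in the whole RNA pool followed. The 22 genes together took 1.30% ± 0.030 of all reads on day 1, 0.708% ± 0.031 on day 3 and 0.414% ± 0.017 on day 5. Every day 1 library lay above every day 3 library, and every day 3 library above every day 5 library. The 11 hypoxia genes took 0.0747% ± 0.00945, 0.0634% ± 0.00794 and 0.231% ± 0.0410, and the day 5 excess came from Epas1. Without the HIF subunits and hydroxylases, the 7 hypoxia-inducible genes took 0.0381% ± 0.00838, 0.0325% ± 0.00683 and 0.0356% ± 0.00519, with overlapping libraries on all days. A length and GC correction removes each library's trend of log2 values against transcript length and GC content. It also centres all libraries on the same mean log2 value, so it changes their scaling too. After this correction the share of rises among all genes called for day 5 against day 3 went from 51.8% to 36.8%. The parts of the trend and of the centring in that shift were not tested. The median of all genes then stood at -0.23, and the glycolytic and hypoxia medians were -0.90 and -0.31 relative to it. Values of single genes after the correction, given below, are not relative to the median of all genes. Quantile normalization, which forces 1 distribution on all libraries, brought the glycolytic median for day 5 against day 3 to -0.45, with 15 genes falling and 2 rising.

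Both steps brought a fall for 12 of the 22 glycolytic genes, a pattern that 7.85% of all tested genes showed. These were Hk2, Pfkl, Pfkp, Pfkfb3, Tpi1, Pgk1, Pgam1, Eno1, Pkm, Ldha, Slc16a1 and Slc16a3. Slc2a1 and Pdk1 fell at the first step only by the test, Hk1, Aldoa and Gapdh fell at the second step, and Gpi1, Ldhb and Pfkfb4 rose and then fell. After the length and GC correction Slc2a1 and Pdk1 also passed as falls at the second step, with log2 changes of -0.44 (adjusted p = 8.8e-04) and -0.67 (adjusted p = 1.2e-05). Pfkm rose at the first step and Aldoc rose at both. Between day 1 and day 3 the 3 libraries of each day overlapped for Hk1, Aldoa, Gapdh, Vegfa and Ankrd37, so 28 of the 33 genes were apart, beside 77.3% of all tested genes. Between day 3 and day 5 only Pdk1, Hif1a and Ndrg1 overlapped among the 33, against a background of 71% of genes with groups apart.

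**Figure D2:**
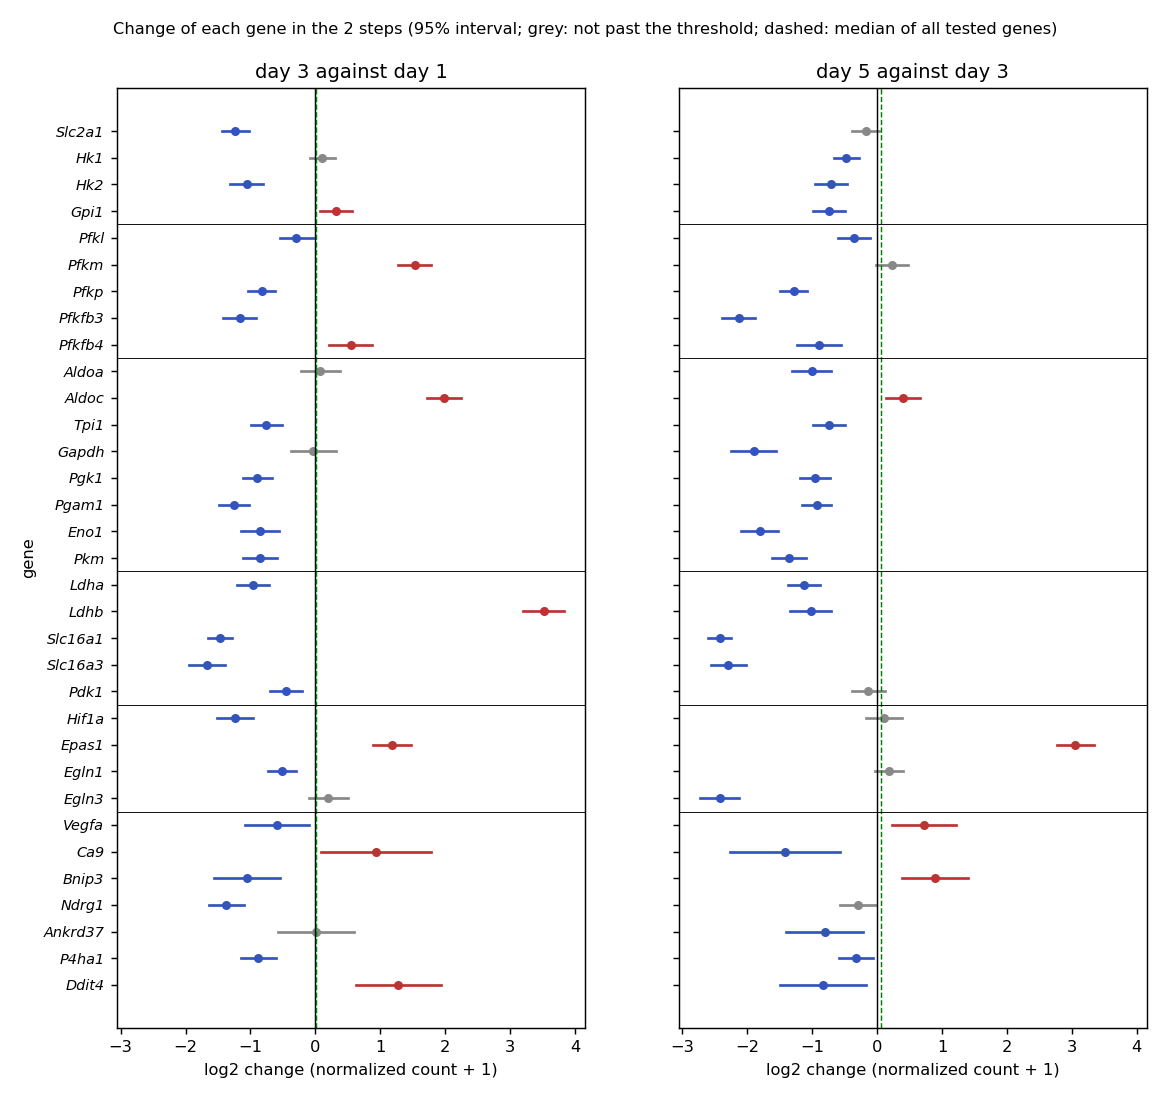
Log2 change of log2(normalized count + 1) for each gene (points) with its 95% confidence interval (lines), for day 3 against day 1 (left) and day 5 against day 3 (right). Red marks rises and blue falls past the threshold, grey genes did not pass, and the dashed line is the median of all tested genes; the monocarboxylate carriers lie farthest left in both panels among the glycolytic genes.

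Glucose enters the cell through Slc2a1 (GLUT1, the basal glucose transporter) and is trapped by hexokinase. Slc2a1 had 3403, 3933 and 3573 normalized counts on day 1, 1446, 1487 and 1718 on day 3 and 1356, 1391 and 1372 on day 5. It fell 2.35-fold by day 3 (log2 change -1.23, SE 0.09, adjusted p = 1.8e-06). From day 3 to day 5 the change was -0.17, SE 0.09, adjusted p = 0.13, which did not pass, although the libraries of the 2 days did not overlap. Hexokinase 2 (Hk2), the form typical of proliferating cells, fell at both steps, from 3489 ± 209 to 1673 ± 109 and 1031 ± 154. The log2 change from day 1 to day 5 was -1.77, SE 0.11, adjusted p = 2.1e-07. Hexokinase 1 (Hk1), the housekeeping form, had 4570.2 ± 286, 4922 ± 121 and 3555 ± 178. Its fall was seen from day 3 to day 5 (log2 change -0.47, SE 0.08, adjusted p = 6.9e-04) and ended under quantile normalization (log2 change -0.02, adjusted p = 0.86). Gpi1 interconverts glucose and fructose phosphates and had its highest level on day 3, with 11339 ± 686, 14160.0 ± 863 and 8530.2 ± 979. Its early rise (log2 change 0.32, SE 0.11, adjusted p = 0.024) was lost without any 1 of 4 libraries, under quantile normalization (0.05) and after the length and GC correction (0.05). Its later falls also ended under quantile normalization, at -0.14 for day 5 against day 3 and -0.09 for day 5 against day 1.

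Phosphofructokinase commits sugar to glycolysis, and its 3 subunits went different ways. The platelet-type subunit Pfkp had 3024, 2998 and 3215 normalized counts on day 1, 1700.0, 1643 and 1867 on day 3 and 767, 720.3 and 652 on day 5, a 4.32-fold fall over the interval (log2 change -2.11, SE 0.09, adjusted p = 1.9e-08). The muscle-type subunit Pfkm rose from 256, 203 and 211 on day 1 to 628, 653 and 645 on day 3 (log2 change 1.53, SE 0.11, adjusted p = 1.5e-06) and stood at 717, 784 and 763 on day 5. The liver-type subunit Pfkl fell less, from 4911 ± 544 to 3998 ± 235 and 3132 ± 353. Its fall from day 1 to day 5 passed under every setting tried, but that of the first step (log2 change -0.29, SE 0.11, adjusted p = 0.037) was lost without 5 of the 6 libraries involved. Per kilobase of transcript, Pfkl was the most abundant subunit on each day, at 1317 ± 146, 1072 ± 63.0 and 839.7 ± 94.8 normalized counts per kilobase, beside 77.6 ± 10.04, 223 ± 4.45 and 262 ± 11.8 for Pfkm. In the annotation, all of the last 500 bases of Pfkp lie opposite an exon of Pitrm1, and the counting strand is not given in the sources used here, so reads of that neighbour could be counted for Pfkp.

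The bifunctional enzymes Pfkfb3 and Pfkfb4 make and break the sugar phosphate that activates phosphofructokinase, and Pfkfb3 is the form with the strongest kinase activity. Pfkfb3 had 1461, 1433 and 1637 normalized counts on day 1, 668, 598 and 755 on day 3 and 159.5, 152 and 145 on day 5. Day 5 thus held 10.1% of the day 1 level (log2 change -3.30, SE 0.11, adjusted p = 6.3e-09). Pfkfb4 was scarcer on day 1 and moved otherwise, with 146 ± 8.49, 214 ± 29.4 and 114 ± 1.01. It rose at the first step (log2 change 0.54, SE 0.15, adjusted p = 0.0079) and fell at the second (log2 change -0.89, SE 0.15, adjusted p = 4.8e-04).

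Lower glycolysis, the 8 genes from aldolase to pyruvate kinase, holds the most abundant RNAs of the route, and 7 of the 8 fell from day 1 to day 5. Pkm, the pyruvate kinase that makes pyruvate and ATP, had 60704, 66806 and 63773 normalized counts on day 1, 36398, 34633 and 34682 on day 3 and 12469.6, 14646 and 14177 on day 5. Its log2 change over the interval was -2.21, SE 0.12, adjusted p = 7.3e-08, with all groups apart. Eno1, the enolase before it, went from 43627, 49255 and 43478 to 25683, 24848 and 25086 and then 5999.9, 7943 and 7801. This 6.27-fold fall (log2 change -2.66, SE 0.13, adjusted p = 4.1e-08) was the largest of these 8 genes. Pgam1 (phosphoglycerate mutase) kept 22% of its day 1 level, Gapdh (the dehydrogenase of the route) 26.5%, Pgk1 (the first kinase to yield ATP) 27.8% and Tpi1 (triose phosphate isomerase) 35.6%. Pgk1 lies on the X chromosome. Aldoa, the main aldolase, had 23119.7 ± 854, 24322 ± 711 and 12258 ± 2148, so its fall came in the second step alone (log2 change -1.0, SE 0.14, adjusted p = 1.1e-04). At the first step its log2 change was 0.07 with overlapping libraries, and it was -0.60 under quantile normalization and -0.74 after the length and GC correction. Aldoc, the aldolase known from brain, rose from 191, 204 and 212 on day 1 to 848, 846 and 718 on day 3 and 988, 998 and 1206 on day 5. Its first rise (log2 change 1.98, SE 0.12, adjusted p = 5.2e-07) passed under every setting tried, while the second (log2 change 0.40, SE 0.12, adjusted p = 0.011) dropped to 0.02 after the length and GC correction.

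The order of the levels changed with these falls. On day 1 the highest levels per kilobase of transcript were Pkm at 26218 ± 1255, Ldha at 23016 ± 356 and Eno1 at 22424 ± 1625 normalized counts per kilobase, and the libraries of the last 2 overlapped. By day 3 Aldoa led at 15702 ± 459, ahead of Pkm at 14489 ± 413. On day 5 Aldoa stood at 7913 ± 1387, and a hypoxia gene, Epas1, came next at 6658 ± 812, with Pkm at 5659.7 ± 471 and Ldha at 5439 ± 437. The day 5 libraries overlapped between Aldoa and Epas1 and between Pkm and Ldha, and those of Epas1 lay just above those of Pkm.

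Retrocopies, processed copies of an mRNA elsewhere in the genome, took part of the reads for 3 of these genes. The 3 Gapdh copies listed with reads held 55.6% ± 3.97 of the combined count on day 1, 45.1% ± 7.20 on day 3 and 54.9% ± 2.59 on day 5. Gapdh itself had 12225, 13355 and 11651 normalized counts on day 1, 13939, 12513 and 10222 on day 3 and 2635, 3338 and 3889 on day 5. Its first step did not pass (log2 change -0.03, SE 0.16, adjusted p = 0.87), but the gene and its copies summed to 28086 ± 3337 and 22242 ± 526, with the libraries apart and a log2 difference of -0.33. The length and GC correction gave Gapdh a log2 change of -0.82 at that step (adjusted p = 7.0e-05). The second step was a fall either way, by 3.72-fold for the gene (log2 change -1.90, SE 0.16, adjusted p = 3.7e-06) and to 7267 ± 1145 for the sum. Eno1b held 21.5% ± 1.88, 19.6% ± 2.51 and 14.3% ± 1.35 of the combined Eno1 count on days 1, 3 and 5. The 2 Pgam1 copies held 19.2% ± 1.2, 4.85% ± 2.28 and 13.2% ± 1.27. Both genes fell at each step, and the sums with their copies also had the days apart. Copies of Ldha, Ldhb, Pgk1, Gpi1 and Aldoa took at most 2.56% of a combined count as the mean of a day, and single libraries could exceed that. Copies were looked for by name, and only for these genes, Gapdh, Eno1 and Pgam1. How the authors' counting divided reads between near-identical sequences is not given in the sources used here, so the separate levels of Gapdh, Eno1 and Pgam1 are uncertain.

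**Figure D3:**
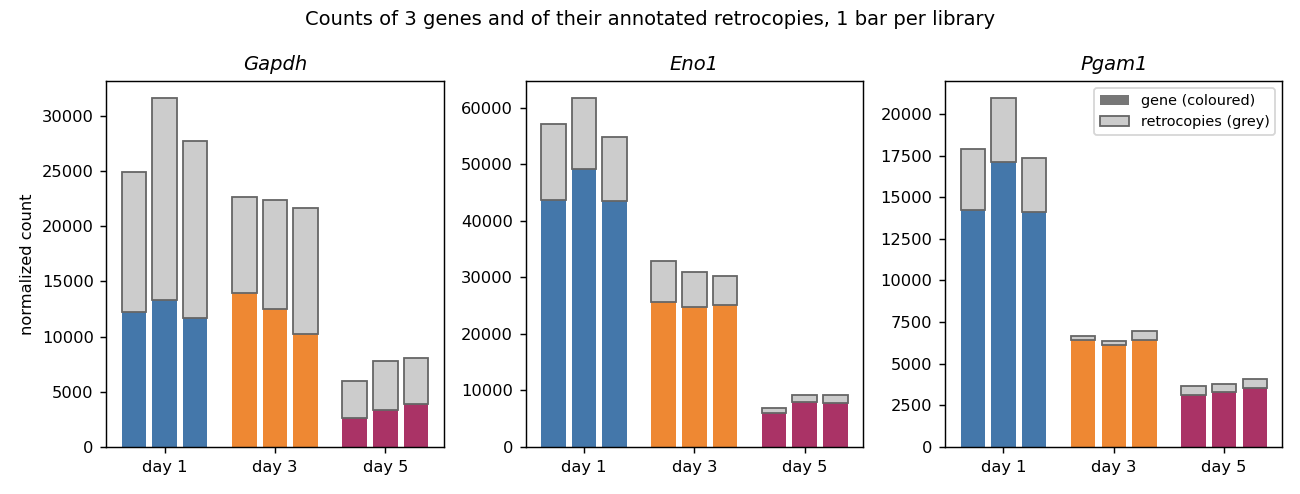
Stacked bars of the normalized counts of Gapdh, Eno1 and Pgam1 (coloured by day) and of their retrocopies (grey), 1 bar per library from a linear axis starting at 0. For Gapdh the combined bar falls from 28086 to 22242 between day 1 and day 3 while the coloured part stays at 12410 and 12225.

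Pyruvate is turned into lactate by lactate dehydrogenase, a tetramer of Ldha and Ldhb subunits, of which Ldha favours lactate formation and Ldhb the reverse. Ldha (ENSMUSG00000063229) had 42147, 42146 and 41027 normalized counts on day 1, 19969.8, 21768 and 22601 on day 3 and 8956, 10353 and 10304 on day 5. It fell at both steps, by 1.95-fold (log2 change -0.96, SE 0.11, adjusted p = 2.1e-05) and by 2.17-fold (log2 change -1.12, SE 0.11, adjusted p = 1.2e-05). Under quantile normalization these falls were -1.72 and -0.37, and both passed. Ldhb (ENSMUSG00000030246) had 408, 332 and 454 on day 1, 4519, 4903 and 4147 on day 3 and 1874, 2344 and 2488 on day 5. Its 11.4-fold rise (log2 change 3.51, SE 0.14, adjusted p = 1.2e-07) was the largest rise of the 22 glycolytic genes, followed by a 2.02-fold fall (log2 change -1.02, SE 0.14, adjusted p = 1.2e-04). No day overlapped another for either gene. Pdk1, which blocks the entry of pyruvate into the mitochondrial cycle, fell at the first step, from 1551 ± 59.4 to 1131 ± 46.3 (-0.45, SE 0.11, adjusted p = 0.0039 for the log2 change), and had 1039 ± 165 on day 5. After the length and GC correction the first step of Pdk1 turned to 0.28 (adjusted p = 0.0046).

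Lactate leaves and enters cells through Slc16a1 (MCT1, ENSMUSG00000032902) and Slc16a3 (MCT4, ENSMUSG00000025161), the latter known as the exporter of glycolytic cells. Slc16a1 had 3170.1, 3227 and 3188 normalized counts on day 1, 1170.4, 1161 and 1122 on day 3 and 203, 226 and 213 on day 5. Slc16a3 had 1813, 2256 and 1814, then 692, 549 and 599, then 121, 125 and 127. They showed the largest falls of the 33 genes over the interval, 14.9-fold for Slc16a1 (log2 change -3.90, SE 0.08, adjusted p = 3.9e-10) and 15.8-fold for Slc16a3 (log2 change -3.96, SE 0.12, adjusted p = 4.0e-09).

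The promoters of these 4 genes are printed because Ldha and Ldhb moved apart while the carriers Slc16a1 and Slc16a3 moved together, a choice made after the values were seen. Each is the 250 bases before the transcription start in RefSeq on GRCm38.p6, with Ldha at chr7:46845554-46845803 (plus strand), Ldhb at chr6:142507958-142508207 (minus strand), Slc16a1 at chr3:104638414-104638663 (plus strand) and Slc16a3 at chr11:120948817-120949066 (plus strand). Capitals mark the core letters of the hypoxia response element, ACGTG or GCGTG on either strand, with overlapping matches joined.
Ldha: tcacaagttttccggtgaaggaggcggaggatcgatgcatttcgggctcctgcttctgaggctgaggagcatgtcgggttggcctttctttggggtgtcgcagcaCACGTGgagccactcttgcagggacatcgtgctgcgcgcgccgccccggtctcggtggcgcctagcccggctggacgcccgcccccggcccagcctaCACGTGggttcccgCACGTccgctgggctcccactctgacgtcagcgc
Ldhb: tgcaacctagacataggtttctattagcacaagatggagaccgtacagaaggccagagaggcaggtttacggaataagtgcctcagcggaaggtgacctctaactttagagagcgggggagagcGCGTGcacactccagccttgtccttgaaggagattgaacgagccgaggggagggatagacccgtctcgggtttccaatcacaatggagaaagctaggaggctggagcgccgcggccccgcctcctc
Slc16a1: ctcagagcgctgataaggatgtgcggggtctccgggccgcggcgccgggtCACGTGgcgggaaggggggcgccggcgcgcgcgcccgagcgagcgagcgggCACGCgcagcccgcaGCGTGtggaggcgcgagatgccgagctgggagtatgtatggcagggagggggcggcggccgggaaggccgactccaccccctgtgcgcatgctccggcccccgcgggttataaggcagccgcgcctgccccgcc
Slc16a3: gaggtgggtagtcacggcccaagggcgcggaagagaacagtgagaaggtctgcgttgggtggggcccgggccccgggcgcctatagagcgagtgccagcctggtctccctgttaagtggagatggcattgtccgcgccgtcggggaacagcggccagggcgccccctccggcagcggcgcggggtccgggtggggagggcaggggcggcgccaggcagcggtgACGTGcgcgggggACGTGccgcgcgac
The printed stretch holds 3 marked places for Ldha, 1 for Ldhb, 3 for Slc16a1 and 2 for Slc16a3. In windows of 300 bases, which add 50 bases after the start, 17 of 22 glycolytic promoters (77.3%) and 8 of 9 hypoxia promoters (88.9%) held at least 1 match, beside 43.8% of all 27025 promoters in the table. Among the glycolytic genes without a match were Aldoa, Gpi1, Hk1, Pkm and Tpi1, and among the hypoxia genes Vegfa. The table held promoters of 31 of the 33 genes, all but Epas1 and Ndrg1. Such a match is a description of the letters in this window. The share for all promoters includes genes that did not pass the filter here. It is not matched for CG content, and both core sequences contain CG. The windows of Ldha and Slc16a1 held 7 and 5 matches, and Ldhb held 1, while the falling Tpi1 and Pkm held 0. These counts take CACGTG once on each strand. With overlapping matches joined, the windows of Ldha and Slc16a1 held 5 and 4 marked places.

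The pairs of related genes were compared within each library, as the log2 ratio of their normalized counts, by an exact permutation test over all 1680 ways of assigning the libraries to the days. With 9 pairs adjusted together, 8 differed between days. No share was computed for pairs of other genes. Among all tested genes taken singly, 91.4% differed between days by the F test, which is a different test. The smallest p such a test can give is 0.0036. Ldhb over Ldha had ratios of 0.00967, 0.00788 and 0.0111 on day 1, 0.226, 0.225 and 0.183 on day 3 and 0.209, 0.226 and 0.241 on day 5 (exact permutation test, adjusted p = 0.02). Nearly all of the shift fell in the first step, 4.48 on the log2 scale, and the second added 0.10. Per kilobase of transcript, Ldha exceeded Ldhb 76.8-fold on day 1, 3.43-fold on day 3 and 3.19-fold on day 5, so Ldha remained the more abundant.

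The ratio of Aldoc to Aldoa rose in both steps, by 1.91 and 1.41, and Aldoa still exceeded Aldoc 20.7-fold per kilobase on day 5. Pfkfb4 over Pfkfb3 had ratios of 0.0942, 0.102 and 0.0944 on day 1 and 0.708, 0.754 and 0.788 on day 5, and per kilobase the 2 were level on day 5, at 1.03. Pfkm gained on Pfkl by 2.41 from day 1 to day 5, whereas Pfkp over Pfkl changed by -1.46. Each of these 4 pairs had an adjusted p of 0.0054 in the exact permutation test. Hk2 over Hk1 changed by -1.40 over the interval (exact permutation test, adjusted p = 0.0092), most of it in the first step. Slc16a3 over Slc16a1 was the pair that did not pass, with ratios of 0.572, 0.699 and 0.569 on day 1, 0.591, 0.473 and 0.534 on day 3 and 0.595, 0.554 and 0.595 on day 5 (exact permutation test, adjusted p = 0.27). After the length and GC correction this ratio changed by -0.60 from day 1 to day 5 (adjusted p = 0.0040).

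**Figure D4:**
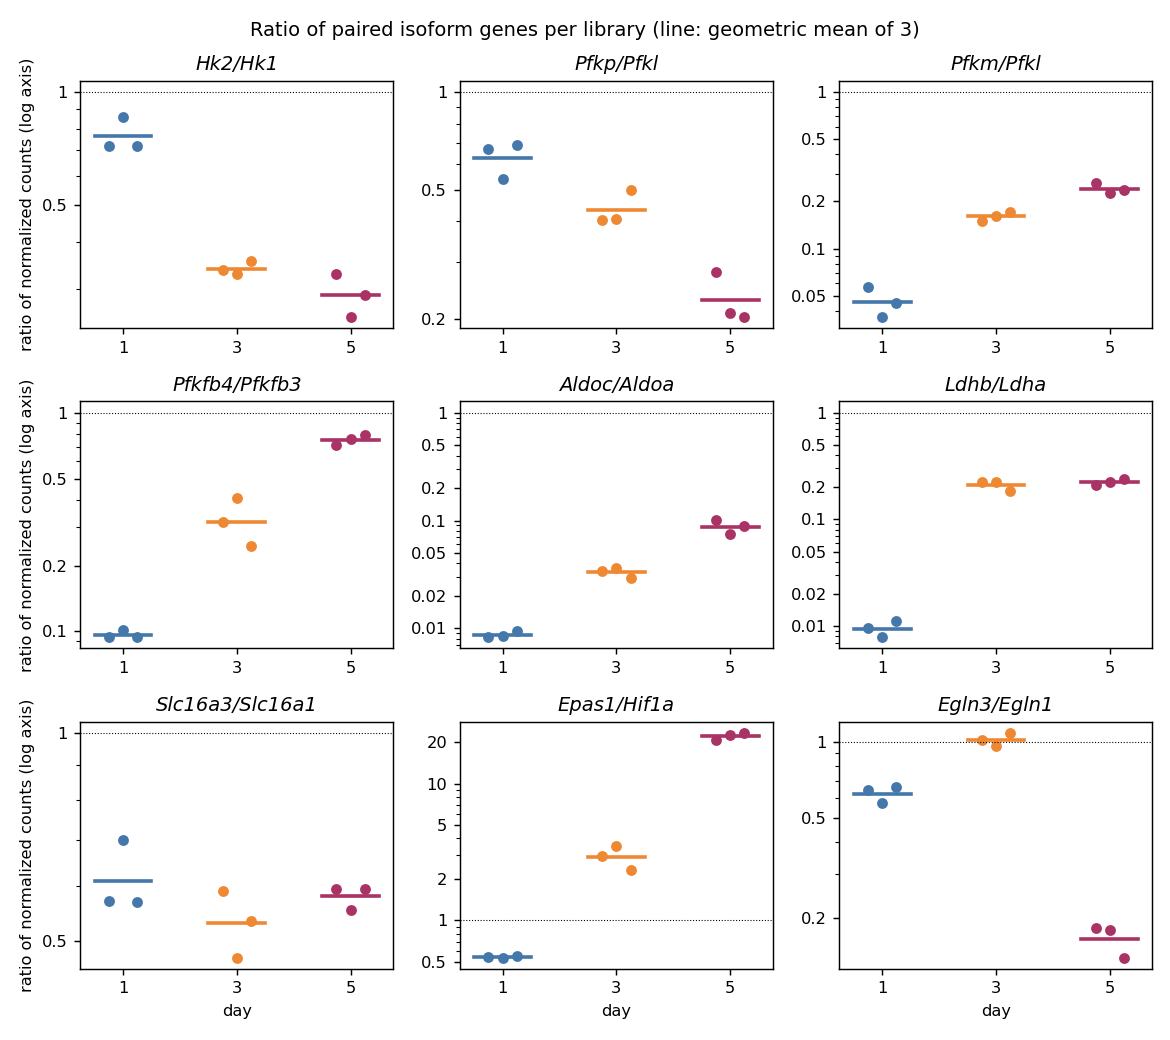
Ratio of normalized counts (log axis) of 9 gene pairs in each library (points) by day, with the geometric mean of the 3 libraries (line) and a ratio of 1 (dotted). The 3 days are apart for 6 pairs; days 3 and 5 overlap for Hk2/Hk1 and Ldhb/Ldha, and all days overlap for Slc16a3/Slc16a1.

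The RNAs of the HIF alpha subunits moved in opposite directions at the first step. Hif1a (ENSMUSG00000021109), the alpha subunit best known for glycolytic targets, had 3409, 3478 and 3871 normalized counts on day 1, 1468, 1463 and 1640.1 on day 3 and 2011, 1528 and 1434 on day 5. It fell 2.35-fold at the first step (log2 change -1.23, SE 0.13, adjusted p = 1.0e-05) and differed by 0.11 at the second, with overlapping libraries. After the length and GC correction these changes were -0.38 (adjusted p = 2.4e-04) and -0.48 (adjusted p = 4.9e-05), beside medians of 0.04 and -0.23 for all genes. Epas1 (ENSMUSG00000024140), the second alpha subunit, had 1843, 1862 and 2131 on day 1, 4312, 5140.0 and 3846 on day 3 and 41844, 34812 and 33526 on day 5. It rose 2.28-fold and then 8.29-fold (log2 change 3.05, SE 0.13, adjusted p = 1.0e-07), 18.9-fold in all, and the groups were far apart. Epas1 is also known from endothelial cells. The 6 endothelial markers summed to 8.61 to 16.8 normalized counts on day 5, with Kdr, Cldn5 and Emcn at 0. Pecam1 had 2.02 ± 0.89, 16.2 ± 5.78 and 8.70 ± 2.39 on days 1, 3 and 5. Tek had 12.5 ± 2.92, 2.38 ± 0.37 and 3.63 ± 2.46. The fibroblast markers were higher on the same day, at a sum of 105 to 139, of which Dcn made 112 ± 16.1, and the part of either list in the Epas1 result was not tested. The ratio of Epas1 to Hif1a was 0.541, 0.535 and 0.55 on day 1, 2.94, 3.51 and 2.34 on day 3 and 20.8, 22.8 and 23.4 on day 5 (exact permutation test, adjusted p = 0.0054). Per kilobase it went from 0.464 to 2.51 and 19.1.

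The prolyl hydroxylases that mark HIF for degradation also diverged. Egln1 (PHD2), the main oxygen sensor, had 1409 ± 152 on day 1 and 987 ± 66.7 on day 3, a fall with a log2 change of -0.51, SE 0.10, adjusted p = 7.7e-04, and had 1117 ± 19.4 on day 5. Egln3 (PHD3), itself a well known HIF target, had 842, 902 and 882 on day 1, 956, 919.8 and 1149 on day 3 and 209, 200.1 and 154 on day 5. Its fall came at the second step, 5.37-fold (log2 change -2.42, SE 0.14, adjusted p = 3.3e-07), where every day 5 library lay below every earlier one. Egln3 over Egln1 accordingly rose by 0.71 and then changed by -2.60 (exact permutation test, adjusted p = 0.0054).

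The 7 hypoxia-inducible genes showed no common course. At the first step 4 fell (Vegfa, Bnip3, Ndrg1, P4ha1) and 2 rose (Ca9, Ddit4), at the second 4 fell (Ca9, Ankrd37, P4ha1, Ddit4) and 2 rose (Vegfa, Bnip3), and from day 1 to day 5 the 3 that passed all fell (Ndrg1, Ankrd37, P4ha1). Ndrg1, a stress-response protein, had 1686, 1540.2 and 1851 normalized counts on day 1, 636, 576 and 754 on day 3 and 526, 490.5 and 582 on day 5. Its first step was a 2.58-fold fall (log2 change -1.37, SE 0.12, adjusted p = 4.5e-06), and days 3 and 5 overlapped. P4ha1, the prolyl hydroxylase subunit for collagen, went from 879 ± 139 to 475 ± 28.8 and 378 ± 4.25. Its first fall (log2 change -0.88, SE 0.12, adjusted p = 7.4e-05) was -0.31 after the length and GC correction (adjusted p = 0.052), and the second (log2 change -0.33, SE 0.12, adjusted p = 0.034) was lost without any 1 of 5 libraries.

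Vegfa, the growth factor of blood vessels, had its lowest mean on day 3. It had 3218, 2124 and 3420.0 on day 1, 1705, 1655 and 2447 on day 3 and 4043, 2921 and 2629 on day 5, with log2 changes of -0.59, SE 0.22, adjusted p = 0.034 and 0.72, SE 0.22, adjusted p = 0.015. Day 1 overlapped both other days, and both changes were lost on leaving out single libraries, falling to -0.46 without day 1 replicate 3 and to 0.54 without day 5 replicate 1. The first was also lost with TMM factors (-0.53), a scaling on trimmed means, and under quantile normalization (-0.49). The second was also lost after the length and GC correction (0.30, adjusted p = 0.19). Bnip3, a receptor for the removal of mitochondria, followed the same course, with 234, 375 and 301 on day 1, 117, 129.9 and 192 on day 3 and 315, 261 and 233 on day 5. Both of its steps passed (log2 change -1.05, SE 0.23, adjusted p = 0.0017, then 0.90, SE 0.23, adjusted p = 0.0055), and the second was 0.56 after the length and GC correction. Of the last 500 bases of Bnip3, 68.4% lie opposite another annotated gene, Gm45507.

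Ddit4, an inhibitor of the growth regulator mTORC1, was highest on day 3. It had 2850.0, 1106 and 2752 on day 1, 4537, 4683 and 5823 on day 3 and 2620.0, 2927 and 2879 on day 5, so the second day 1 library stood far below its group. The rise (log2 change 1.28, SE 0.30, adjusted p = 0.0026) was 0.83 without that library and 0.43 after the length and GC correction (adjusted p = 0.20), and the later fall (log2 change -0.83, SE 0.30, adjusted p = 0.029) was lost without any 1 of 5 libraries and under quantile normalization (-0.39). Ca9, a carbonic anhydrase that regulates pH and a classical mark of hypoxia, was near the detection limit, with 19.0, 13.3 and 17.6 on day 1, 31.2, 29.5 and 36.5 on day 3 and 21.8, 7.74 and 8.61 on day 5. Its rise (log2 change 0.93, SE 0.38, adjusted p = 0.047) was lost without any 1 of the 6 libraries compared, and it was 0.37 after the length and GC correction. The fall after day 3 (log2 change -1.42, SE 0.38, adjusted p = 0.0075) remained past the threshold under every setting tried. Ankrd37, an ankyrin-repeat protein known as a HIF target, was also scarce, at 56.1 ± 8.89, 56.5 ± 6.13 and 32.6 ± 10.2, and its later fall (log2 change -0.81, SE 0.26, adjusted p = 0.02) was lost without any 1 of 4 libraries and after the length and GC correction (-0.54). The leukocyte marker Cd68 was also highest on day 3, with 259 ± 16.7, 1612 ± 80.0 and 163 ± 16.9 on days 1, 3 and 5. Itgam had 3.73, 18.2 and 5.58, and Fcer1g had 3.68, 11.5 and 3.67. Ptprc went the other way, with 3.47, 0 and 0.43, Csf1r was highest on day 5 at 13.2, and Tyrobp was at 0. The part of leukocytes in the day 3 maxima of Ddit4, Ca9, Ldhb, Gpi1 and Pfkfb4 was not tested.

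**Figure D5:**
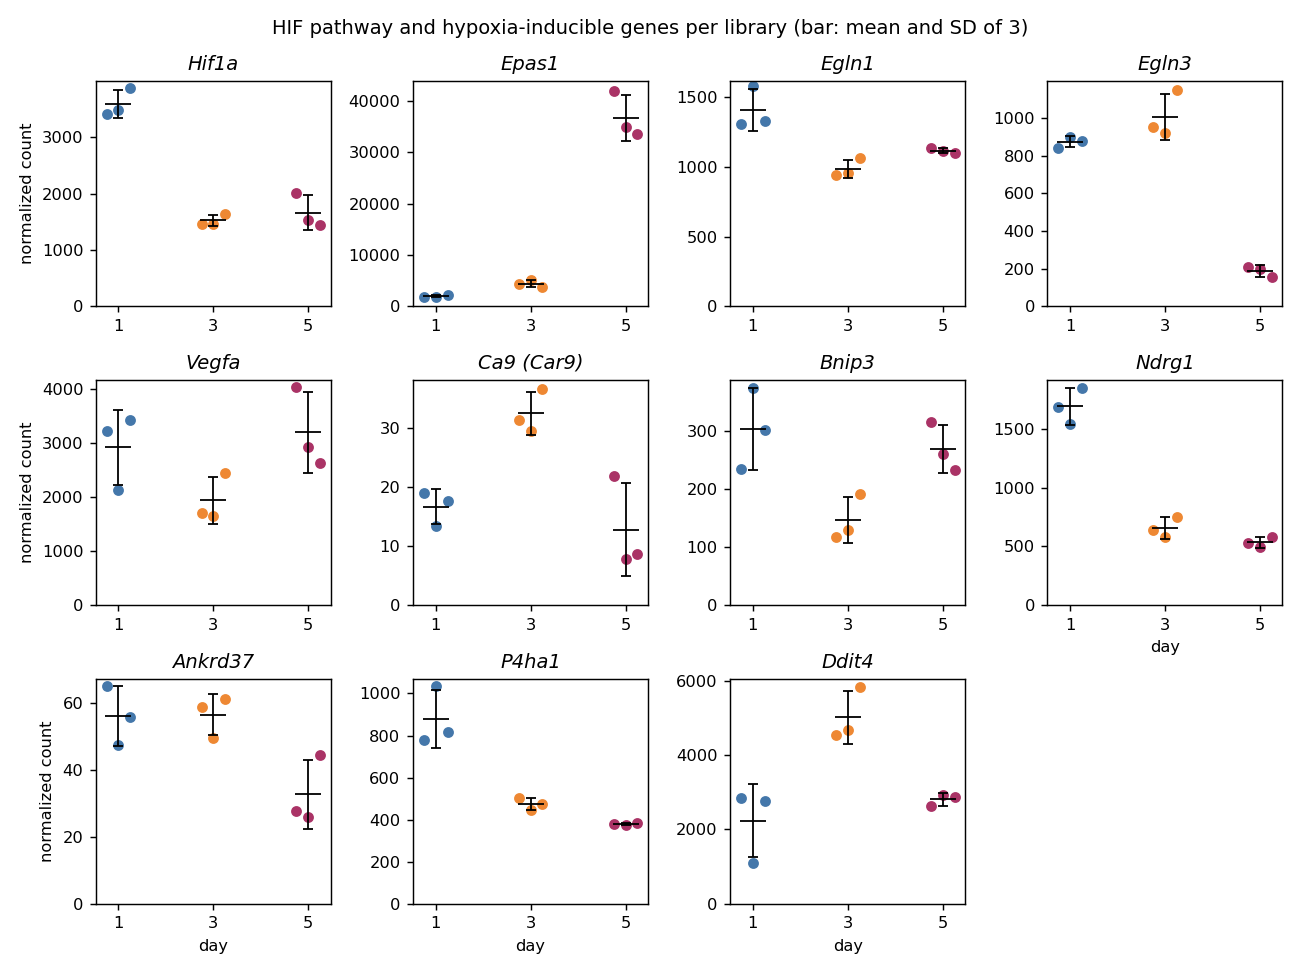
Normalized counts (linear axes from 0) of the 11 hypoxia genes in each library by day, with the mean and SD of the 3 libraries. Epas1 climbs to between 33526 and 41844 on day 5, Hif1a and Ndrg1 drop after day 1, and Vegfa and Bnip3 are lowest on day 3.

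Set side by side, some glycolytic genes, picked with the values known, and the HIF targets among the hypoxia genes had the following changes. HIF is known to raise glucose transport and most glycolytic enzymes, so the glycolytic genes named first are not its only targets among the 22. From day 1 to day 5 the log2 changes were -2.08 for Ldha, -1.85 for Pgk1, -2.66 for Eno1 and -3.96 for Slc16a3. Some other glycolytic genes fell less, with -1.40 for Slc2a1, -0.93 for Aldoa and -0.59 for Pdk1, and Aldoc rose (2.38). Others fell more than Ldha and Pgk1, with -3.90 for Slc16a1, -3.30 for Pfkfb3, -2.21 for Pkm, -2.18 for Pgam1 and -2.11 for Pfkp. Pfkfb4 (-0.35) did not pass. Among all 22 glycolytic genes, 18 fell and 3 rose over this interval. Over the same interval the log2 changes were 0.14 for Vegfa, -0.16 for Bnip3, 0.45 for Ddit4 and -0.49 for Ca9, none of which passed, and their libraries overlapped. Under quantile normalization Ddit4 passed as a rise (0.85) and Ca9 as a fall (-1.26), and Ca9 did so after the length and GC correction as well. The remaining HIF targets fell and passed, with -1.66 for Ndrg1, -1.20 for P4ha1, -0.79 for Ankrd37 and -2.23 for Egln3. That of the scarce Ankrd37 was lost without day 1 replicate 1, day 5 replicate 1 or day 5 replicate 2. As counts, 21 of 22 glycolytic genes and 3 of 7 hypoxia-inducible genes passed for day 5 against day 1, beside 74.5% of all tested genes, and the difference between the sets was not tested. Of the 33 genes, 29 had groups apart in this comparison, beside 76.8% of all tested genes.

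Genes of the same pathways outside the 33 moved in both directions. Of 50 other genes of glycolysis and pyruvate use, 42 were tested. From day 1 to day 3, 20 rose and 10 fell (median log2 change 0.34), beside 36.1% rising and 37% falling among all tested genes. From day 3 to day 5, 19 rose and 13 fell (median 0.22), beside 34.8% rising and 32.4% falling. At the first step the largest rises were Eno3 (muscle enolase), from 22.0 ± 7.26 to 329 ± 44.1 normalized counts, Ldhd (a D-lactate dehydrogenase), from 49.8 ± 3.6 to 412 ± 14.1, and Pdk2 (a pyruvate dehydrogenase kinase), from 32.6 ± 4.38 to 242 ± 20.6. The largest falls were Gpd2 (the mitochondrial glycerol phosphate dehydrogenase), with a log2 change of -2.33, Pfkfb2 (a relative of Pfkfb3), with -1.78, and Adpgk (an ADP-dependent sugar kinase), with -1.36. At the second step Slc2a12 (a glucose transporter) rose from 22.4 ± 8.26 to 254 ± 62.5 and Eno2 (the neuronal enolase) from 10.1 ± 3.24 to 102 ± 15.4. Eno1b, the Eno1 copy described above, fell with a log2 change of -2.35, Pfkfb1 (the liver form) with -1.97 and Pck2 (the mitochondrial carboxykinase) with -1.73. Per kilobase these rising isoforms remained scarce, with Eno2 at 36.4 ± 5.52 and Eno3 at 232 ± 45.0 on day 5 beside 3576 ± 534 for Eno1.

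Of 57 other hypoxia-response genes, 54 were tested. From day 1 to day 3, 16 rose and 26 fell (median -0.24), beside 36.1% rising and 37% falling among all tested genes. From day 3 to day 5, 22 rose and 13 fell (median 0.15), beside 34.8% rising and 32.4% falling. The largest falls at the first step were Car12 (a carbonic anhydrase), from 2571 ± 318 to 342 ± 33.8, Ak4 (an adenylate kinase), from 1223 ± 143 to 181 ± 39.5, and Loxl4 (a lysyl oxidase relative), from 1365 ± 190.5 to 231 ± 5.09. The largest rises were Hif3a (the inhibitory alpha subunit), from 37.4 ± 19.5 to 382 ± 27.1, Selenbp1 (a selenium-binding oxidase), from 12189 ± 4268 to 68629 ± 6809.7, and Egln2 (the remaining prolyl hydroxylase, PHD1), from 958 ± 31.6 to 3099 ± 396. Hif3a and Egln2 thus rose at the step at which Hif1a and Egln1 fell. From day 3 to day 5 Ak4 fell again (-2.16), as did Mif (a cytokine, -2.39) and Ero1a (an oxidase of protein folding, -1.50). Among the largest rises of that step were Pam (a peptide-amidating enzyme, 1.88) and Rora (a nuclear receptor, 1.61). Ak4 had 1223 ± 143, 181 ± 39.5 and 39.4 ± 5.21 normalized counts on days 1, 3 and 5, and no libraries overlapped between days.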

How the data were processed

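Per the submitters' processing notes, HISAT2 2.1.0, the build GRCm39 and DESeq2 1.36.0 were used. Which counter, annotation release and strand setting applied is not given in the sources used here. From these the authors deposited 1 table of log2 normalized counts per gene and library, in which a gene without reads holds an error text (297330 cells), read here as 0. Among 57107 lines, 359 were repeats of a gene and were dropped. On the linear scale 100% of values were whole multiples of 1 read within 0.01 read. The filter kept 17338 genes that reached 10 normalized counts in 3 or more of the 9 libraries. limma 3.58.1 (R 4.3.3, eBayes with trend) was fitted to log2(normalized count + 1), which understates changes of low genes, with 1 mean per day, 6 residual degrees of freedom and two-sided Benjamini-Hochberg adjustment at 0.05. This test was checked on simulated data in which few genes changed, on day 3 only, with the same spread setting for all genes. That setting differs from these data, in which 73% of tested genes passed for day 3 against day 1. Pair ratios used an exact permutation test. limma-voom on the whole reads read back was an alternative.

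All 33 genes are named whatever their result. From each of 2 lists of other pathway genes, the 3 largest rises and falls per step are named among genes past the threshold with a mean of at least 100 normalized counts on some day; some of these are not reported here. The 33 genes and the lists were chosen with earlier results of these data known. Transcript length, GC content and gene overlap came from GRCm38 with GENCODE M21 by identifier, and 17046 tested genes had a length. Promoters are the first-listed start per gene in RefSeq (GRCm38.p6). Levels per kilobase divide by that transcript length. Alternatives were another pseudocount, other scalings and filters, and leaving out each library.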

Additional observations from a re-analysis of the deposited data

How the results depend on the processing

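Over 18 settings, 64 of the 83 changes called among the 33 genes passed under every setting, and 19 were lost or reversed under at least 1. The counts of called genes stayed within 1.5 times the reported count throughout. The length and GC correction turned the log2 change from day 1 to day 3 to -0.74 for Aldoa, 0.28 for Pdk1 and -0.35 for Ankrd37. It turned that from day 3 to day 5 to -0.48 for Hif1a and -7.3e-05 for Egln1, and that from day 1 to day 5 to -0.18 for Vegfa and -0.37 for Ddit4. Quantile normalization turned the first step to -0.60 for Aldoa and -0.12 for Ankrd37, the second to 0.019 for Slc2a1, 0.068 for Pfkl and 0.00076 for Pdk1, and the whole interval to 0.042 for Hk1. TMM factors turned Gapdh at the first step to 0.025. For all of these the cause was not tested. Leaving out 1 library in turn gave a range across 0 for the first step of Gapdh (-0.13 to 0.092) and Ankrd37 (-0.098 to 0.13), the second step of Hif1a (-0.0396 to 0.20), and day 5 against day 1 for Vegfa (-0.078 to 0.27), Bnip3 (-0.33 to 0.0099) and the log2 ratio of Slc16a3 to Slc16a1 (-0.12 to 0.032), none of them called as reported. After the length and GC correction that ratio passed, at -0.60.

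The replicate numbers did not pair the libraries: deviations from the day means correlated at -0.31 to 0.14 between libraries with the same number. With the replicate number as a block, 12206, 10979 and 12437 genes were called in the 3 comparisons, beside 12665, 11664 and 12909 without it. Under the block P4ha1 from day 3 to day 5 no longer passed (adjusted p = 0.066) and Ndrg1 at that step did (adjusted p = 0.026).

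Depth fell from day 1 to day 5, which limits scarce genes most. Ca9 and Ankrd37 had under 100 normalized counts in every library. Counting intervals cover counting error only.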

Other observations

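Glycolysis shares its upper intermediates with the pentose phosphate route, which makes NADPH and ribose, and the 8 genes of that route in the pathway list had these courses. They are described after their values were seen. From day 1 to day 3, 6 of the 8 rose and Rpe fell, and from day 3 to day 5, 5 fell and Rpe rose (limma, adjusted over all tested genes). Of all tested genes, 36.1% rose and 37% fell at the first step, and 34.8% rose and 32.4% fell at the second. Taldo1 (transaldolase) had 3619.9 ± 76.2, 17079.8 ± 1825 and 9463 ± 1911 normalized counts on days 1, 3 and 5, with log2 changes of 2.23, SE 0.15, adjusted p = 9.0e-07, and -0.87, SE 0.15, adjusted p = 5.0e-04. Pgls (the lactonase) went from 899 ± 62.6 to 5941 ± 1258 and 2666 ± 598, and Tkt (transketolase) from 17397 ± 367 to 28134 ± 128 and 13858 ± 1627. G6pdx, the X-linked first enzyme, had 5263 ± 347, 4679 ± 612 and 5106 ± 263 and passed in no comparison.

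Mitochondrial entry of pyruvate was also mixed. The pyruvate carrier subunit Mpc2 rose at both steps, from 616 ± 33.1 to 1539 ± 155 and 2296 ± 422, and Mpc1 rose from 205 ± 57.3 to 465 ± 18.6 at the second (log2 change 1.21, SE 0.18, adjusted p = 2.1e-04). Pdha1, the X-linked alpha subunit of pyruvate dehydrogenase, fell at the first step, from 3239 ± 113 to 1274 ± 76.6 (-1.35, SE 0.18, adjusted p = 5.1e-05 for the log2 change), and Pdhb, its beta subunit, had 2018 ± 41.0, 2597 ± 33.6 and 2193 ± 27.9. Pcx, the pyruvate carboxylase, rose from 786 ± 139.8 to 1403 ± 112 at the first step (log2 change 0.85, SE 0.13, adjusted p = 1.5e-04). The part of sex-linked differences between days in the values of G6pdx and Pdha1 was not tested.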
